A study of Mus musculus with 65 samples.

Results

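The genes of the cytosolic ribosomal proteins were read out in 65 single cells of the embryonic mouse cortex. They were taken by symbol: every row of the count table starting with Rpl or Rps and a digit, plus Rplp0, Rplp1, Rplp2 and Rpsa. Symbols of the S6 kinases and symbols containing "-ps" were left out. The rule found 83 genes of 11971 in the table, 34 with small-subunit symbols and 49 with large-subunit symbols. It also takes in 7 genes that are not the usual subunit genes. Rps19bp1 encodes a protein that binds Rps19, and Rpl7l1, Rpl22l1, Rpl36al, Rpl39l, Rps27l and Rps4y2 are related copies of other members. Rpl26, a protein at the exit of the ribosomal tunnel, was not analysed here. The level unit is counts per 1000000 reads in genes of the same cell (CPM), taken as log2(CPM + 1) wherever means or correlations are given. At 10 CPM or more in 33 or more of the 65 cells were 77 members, and the mean of these 77 is called the member mean.

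The study sequenced single cells to describe transcriptional heterogeneity of neural progenitor cells. All 65 cells form 1 group from C57BL/6J embryos at E13.5, with no genotype or treatment named: cortical hemispheres with the ganglionic eminences removed, and brains of all pups pooled before sorting of live cells. RNA came from 1 cell per library, made with a full-length polyA-primed kit. The sample titles carry a digit that splits the cells into set 1 (31 cells), set 2 (13 cells) and set 3 (21 cells). The labels do not say what this digit stands for, and the sets were treated as possible batches. Because the pooled embryos cannot be told apart, the values below are descriptions over cells and carry no test.

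The label of the cells was set against marker genes. Sox2, a transcription factor of apical progenitors, was at 10 CPM or more in 22 cells. Neurod6, a marker of young excitatory neurons, was so in 16. No cell had both, and 27 cells had neither, so that the cells labelled as progenitors spanned a range into neurons. Of the red blood cell list, 4 of 8 genes were measured and 47 cells held at least 1 of them at 10 CPM or more. The meningeal and mural list reached that level in 7 cells. The microglial list did so in 4 cells, through only 1 of its 5 measured genes, and none of the 6 endothelial genes was measured.

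Ribosomes are built from a small subunit, which reads the messenger RNA, and a large subunit, which joins the amino acids. Each holds ribosomal RNA and many proteins, nearly all of them needed in equal numbers. Dividing progenitors make many ribosomes before each division, and most mammalian ribosomal protein messages begin with a C followed by a run of C and T. This 5′ terminal pyrimidine tract lets the growth-controlling kinase mTOR and the RNA-binding protein Larp1 adjust their translation together.

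The tract could be looked for in RefSeq start sites of mouse assembly GRCm38.p6, where 62 of the 83 members had an entry. The motif was a C followed by C or T without a break, on the strand of the gene only, with at least 5 bases and beginning within 5 bases of the annotated start. It was found in 29 of 62 members, or 46.8%, and in 21.2% of the 27025 genes with a start in that table. Tracts of at least 8 bases were found in 21 members, or 33.9%, against 5.17% of all genes. At the annotated start itself, a tract of 5 or more began in 13 members, or 21%, against 3.01%. The windows printed here run from 10 bases before the annotated start to 20 bases into the transcript, with the longest C-led run that begins within 5 bases of the start in capitals. They were chosen to set 5 members with a tract beside 3 without one.
Rps6: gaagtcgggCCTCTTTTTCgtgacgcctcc
Rpl15: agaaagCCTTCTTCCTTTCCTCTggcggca
Rps18: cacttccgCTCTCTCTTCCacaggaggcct
Rpl38: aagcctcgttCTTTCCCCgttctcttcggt
Rps27: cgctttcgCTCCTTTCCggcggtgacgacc
Rpl41: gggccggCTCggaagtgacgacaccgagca
Rpl7l1: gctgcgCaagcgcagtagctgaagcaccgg
Rps19bp1: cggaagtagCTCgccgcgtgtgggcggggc

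The windows lie at chr4:86857348-86857377 (Rps6, minus strand), chr14:18270967-18270996 (Rpl15, minus), chr17:33955646-33955675 (Rps18, minus) and chr11:114668570-114668599 (Rpl38, plus). Those of Rps27, Rpl41, Rpl7l1 and Rps19bp1 lie at chr3:90213629-90213658, chr10:128549149-128549178, chr17:46782637-46782666 and chr15:80264287-80264316, all on the minus strand. Each window covers the promoter's last bases and the beginning of the first exon. Rps27 carries a tract of 9 bases and was among the lowest members in the counts, whereas Rpl41 has a run of 3 and was the highest per length. Among members of the mean with a start in the table, the 27 with a tract of 5 or more had a median level of 8.84 on the log2(CPM + 1) scale, and the 31 without had 9.88. The 2 ranges overlapped almost fully, from 6.26 to 11 and from 6.10 to 11.5. No match in a window says only that these letters were not at the annotated start.

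Ribosomal protein genes took a median of 8.62% of a cell's reads in genes, from 2.93% to 31.6% (mean 10.5 ± 5.89, SD over 65 cells). The share in set 1 ran from 2.93% over a median of 7.47% to 11.6%, and that in set 2 from 3.64% over 7.56% to 10.4%. In set 3 it ran from 9.84% over 16.1% to 31.6%. Set 3 thus lay above the other sets with little overlap: 19 of its 21 cells exceeded 10%, against 3 of 31 in set 1 and 1 of 13 in set 2. The 4 cells above 20% were all in set 3.

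**Figure D1:**
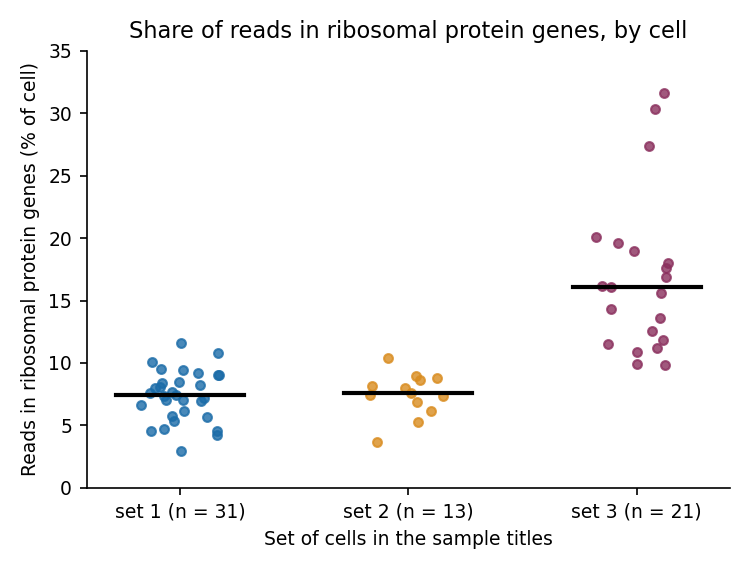
Share of each cell's reads in genes that fell in the 83 ribosomal protein genes (vertical axis, percent), by the set in the sample title (horizontal axis). Each point is 1 cell and each bar the median of its set; the median is 7.47% in set 1, 7.56% in set 2 and 16.1% in set 3.

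The split between subunits was steadier than the total. Small-subunit symbols held a median of 0.691 reads for each read in large-subunit symbols (range 0.460 to 0.948). Its set medians of 0.657, 0.803 and 0.737 for sets 1, 2 and 3 came with overlapping ranges. No single member made up the share: the highest member of a cell held a median of 4.59% of its ribosomal protein reads and at most 8.42%. For comparison, the 76 genes of the mitochondrial ribosome, which translates the mitochondrion's own messages, held a median of 0.742% of reads. Their share was also highest in set 3, with medians of 0.678%, 0.527% and 1.19% in sets 1, 2 and 3.

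Depth and one other class of reads moved with the sets. Reads in genes had medians of 14032041 for set 1, 8127759 for set 2 and 22483962 for set 3, and 3 of the 65 cells had fewer than 1000000. Rn45s, the row of the ribosomal RNA precursor, held from 1.43% to 5.55% of reads in set 1, from 6.61% to 11% in set 2 and from 0.0518% to 0.294% in set 3, without overlap. With Rn45s taken out of the total, the median ribosomal protein share was 7.68%, 8.42% and 16.1% in sets 1, 2 and 3, so that the order of set 3 over the others stayed. With every cell thinned to 1390849 reads and shallower cells left out, the median over cells was 8.54%. Thinning leaves the expected share of each cell as it was, so this value cannot show whether depth bears on the share. The part of depth, of library making or of the red blood cell reads in the set difference was not tested. The red blood cell genes summed to 0 to 505 CPM in set 1, 197 to 5613 CPM in set 2 and 57.4 to 2114 CPM in set 3. Their medians were 0.885, 607 and 736 CPM, whereas the ribosomal protein share of set 2 was close to that of set 1. The meningeal and mural genes, of which 6 of 8 were measured, also moved with the sets. They summed to 0 to 143 CPM in set 1, to 0 in every cell of set 2 and to 0.140 to 19800 CPM in set 3, and 6 of the 7 cells with any of them at 10 CPM or more were in set 3. These 6 cells had a median ribosomal protein share of 11.7% (9.89% to 19.6%), and the other 15 cells of set 3 had 16.2% (9.84% to 31.6%). The part of such cells in the set difference was not tested.

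Within the sets, cells with a progenitor gene and cells with a neuronal gene differed in level. In set 1 the share had a median of 8.997% in the 9 cells with Sox2 (6.67% to 10.8%) and 5.76% in the 11 cells with Neurod6 (4.27% to 11.6%). In set 3 it was 16.8% in 7 Sox2 cells (12.6% to 20.1%) and 9.89% in 3 Neurod6 cells (9.84% to 10.9%), without overlap. In set 2 it was 8.70% in 6 Sox2 cells (7.56% to 10.4%) and 6.76% in 2 Neurod6 cells (6.14% and 7.38%), again without overlap. The median was therefore higher in Sox2 cells in each set, with overlap in set 1, where a single Neurod6 cell held the highest share of the set. The 3 highest cells of all, at 27.3%, 30.3% and 31.6%, had Sox2 below 1 CPM and Neurod6 below 1 CPM. One of them had Eomes, the transcription factor of intermediate progenitors, at 182 CPM.

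The neuronal minus progenitor score is the mean log2(CPM + 1) of 20 neuronal genes minus that of 20 apical progenitor genes. The member mean fell along it, with a Spearman rho of -0.53 and a Pearson r of -0.54 over 65 cells. Within sets 1, 2 and 3, rho was -0.71, -0.71 and -0.57. Leaving out the 2 cells with the most extreme scores, counted from the median, gave -0.50. It was -0.51 with every cell thinned to the same number of reads. The relation was thus present in each set and closer within sets than across them. Library depth differed between cells and moved with the member mean. The member mean had a rho of 0.69 with reads in genes over all cells, and 0.40, 0.73 and 0.46 within the sets.

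**Figure D2:**
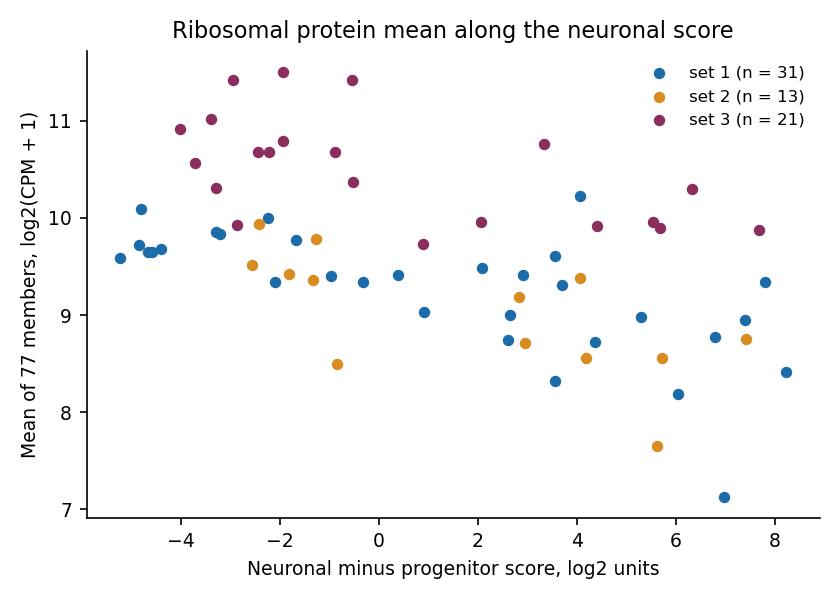
Mean log2(CPM + 1) of the 77 members of the mean (vertical axis) against the neuronal minus progenitor score in log2 units (horizontal axis), 1 point per cell, coloured by set. In each set the points run from upper left to lower right (rho -0.71, -0.71 and -0.57), and most points of set 3 lie above the other 2 sets.

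Cell cycle genes went the other way. The mean of 27 genes of DNA replication and the G1/S transition had a rho of 0.31 with the member mean over all cells and of 0.68, 0.72 and 0.57 within sets 1, 2 and 3. For 36 genes of G2 and mitosis these were 0.39 and 0.63, 0.50 and 0.40. The progenitor genes alone had a rho of 0.47 and the neuronal genes alone -0.56. The intermediate progenitor genes had -0.04 and the interneuron and ventral genes -0.15, both nearer to 0. Rn45s had a rho of -0.67 over all cells but -0.02, 0.16 and -0.06 within the sets, so that this relation lay between sets.

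The single members followed the same direction. The Spearman rho with the score was negative for 82 of 83 members and for 60.2% of other genes of mean CPM 10 or more. Negative rho in every set was found for 64 of the 79 members with a mean of 10 CPM or more, where 25.5% of all 8377 genes at that level had it. The median rho was -0.34 for the members and -0.05 for the other genes. Rplp0, the base of the stalk that recruits translation factors, had the lowest rho, at -0.59, with -0.62, -0.65 and -0.59 within the sets. Rplp0 ran from 361 over 2377 to 4532 CPM in set 1, from 6.07 over 2077 to 4031 CPM in set 2 and from 354 over 3159 to 5671 CPM in set 3. These ranges overlap widely, so its differences lay between cells of a set more than between sets. Rplp2, which forms dimers with Rplp1 on the same stalk, followed at -0.52, then Rps27l at -0.52, Rpsa, a small-subunit protein near the messenger's exit, at -0.51, Rpl14 at -0.50 and Rpl13a at -0.49. At the other end stood Rps19bp1 at 0.01, Rps7 at -0.08, Rpl13 at -0.10, Rpl29 at -0.15, Rpl23a at -0.15 and Rps27 at -0.16. Rps7 had 0.15, -0.47 and 0.05 within sets 1, 2 and 3 and had 37.6 CPM or more in every cell.

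The members varied together. Over 65 cells, the mean Pearson r between pairs of the 77 members was 0.38, with 95.2% of pairs above 0, and the first principal component held 36.8% of their variance. With each set centred on its own mean, the mean r was 0.24 and the component held 25.8%. In sets 1, 2 and 3 alone the mean r was 0.34, 0.12 and 0.35, so the joint variation was weakest in set 2, which has the fewest cells and the lowest depth. The 29 mitochondrial ribosomal protein genes at the same detection had 0.14, and 0.07 when centred, at much lower counts. Pairs within the small subunit (0.27), within the large subunit (0.22) and across subunits (0.25) had close mean r after centring. Measured against the mean of the other 82 members, 62 of 79 members had an r of 0.5 or more, while 1.34% of all genes at that level reached it with the member mean. After centring it was 32 of 79, against 0.895%. The level meant here is a mean of 10 CPM or more, and most other genes above it were read far less than the members. Their median was 0.016 CPM per kilobase of transcript, against 1424 for the 77 members. The part of level in this contrast was not tested.

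Among members, Rpl41 was closest to the rest, with an r of 0.87. Rpl41 is the smallest of the ribosomal proteins. It ran from 738 over 1796 to 3790 CPM in set 1, from 598 over 2763 to 4559 CPM in set 2 and from 3326 over 6370 to 17448 CPM in set 3, where only the lowest cells reached down to the highest of the other sets. After it came Rps25 (0.83), which some viral messages need for translation, Rpl37 (0.81), Rplp2 (0.81), Rps19 (0.81) and Rpl22l1 (0.80).

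Levels per length were spread around a common value. Per kilobase of transcript, the median CPM of the 77 members had a median of 1424, a 10th percentile of 507 and a 90th percentile of 2419, which is 4.77 times higher. The median member stood above 99.7% of other genes of mean CPM 10 or more on this scale. Highest were Rpl41 at 6238 CPM per kilobase, Rps14 at 3340, Rps19 at 2789, Rps9 at 2787 and Rps6 at 2764. Rps19 is needed for the maturation of the small subunit, and Rps6 is the classic substrate of the S6 kinases. Lowest among the 77 were Rpl7l1 at 62.3, Rpl22l1 at 172, Rps20 at 203, Rpl36al at 277 and Rpl12 at 338 CPM per kilobase. The annotated Rps20 transcript has 3706 bases, far above the median of 729 for members, which lowers its value on this scale.

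**Figure D3:**
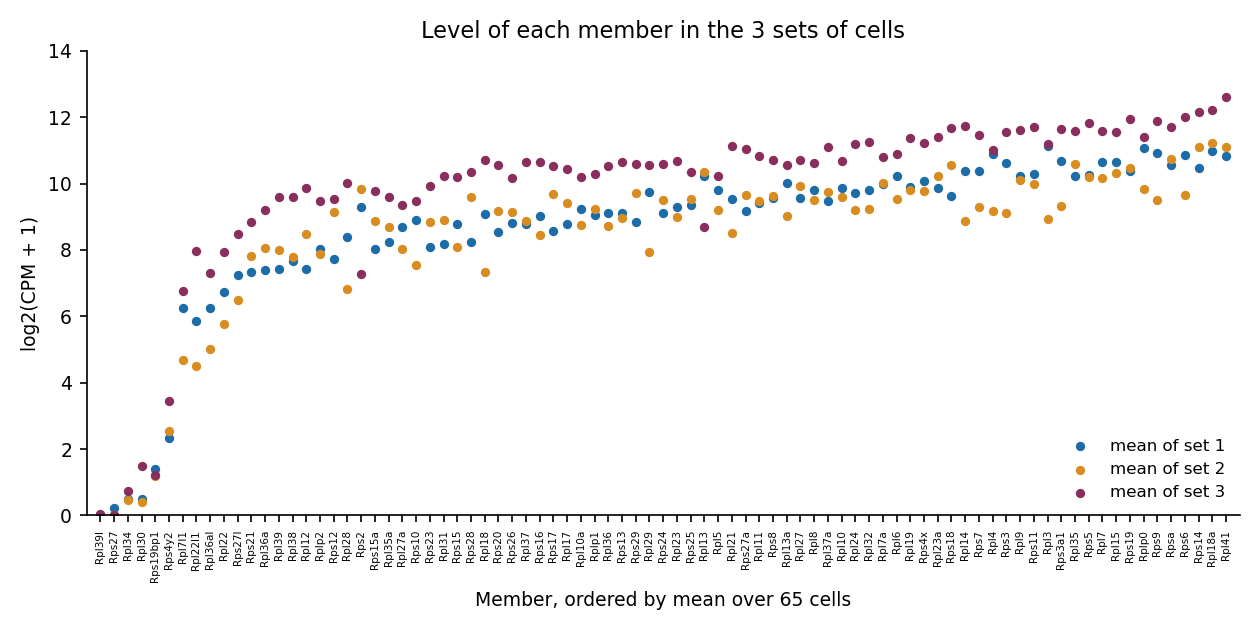
Mean log2(CPM + 1) of each of the 83 members in set 1, set 2 and set 3 (vertical axis), members ordered by their mean over 65 cells (horizontal axis). Set 3 is the highest for nearly all members above 6 on the scale, with Rps2 and Rpl13 as the clear exceptions, and 6 members lie far below the rest.

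A member was counted as departing in level when its mean lay more than 3 scaled median absolute deviations from the median member, that is, below 5.85 against a median of 9.67. It departed in pattern when its r with the other members lay as far below the median r of 0.63, that is, below 0.24. It departed in detection when it was under 10 CPM in more than 32 cells. By these rules 9 members departed: 6 in level, 6 in pattern and 6 in detection, with 3 in all. The same 6 genes departed in level and in detection, namely Rpl39l, Rps27, Rpl34, Rpl30, Rps19bp1 and Rps4y2. In pattern departed Rps27, Rpl34, Rps19bp1, Rps2, Rpl13 and Rpl4. Just inside the level bound were Rpl7l1 at 6.10, Rpl22l1 at 6.26 and Rpl36al at 6.34, and just outside it Rps4y2 at 2.73, a wide gap. At the bound on r the gap was narrow, with Rpl34 at 0.23 outside and Rps4y2 at 0.25, Rpl7l1 at 0.25 and Rpl10 at 0.26 inside.

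**Figure D4:**
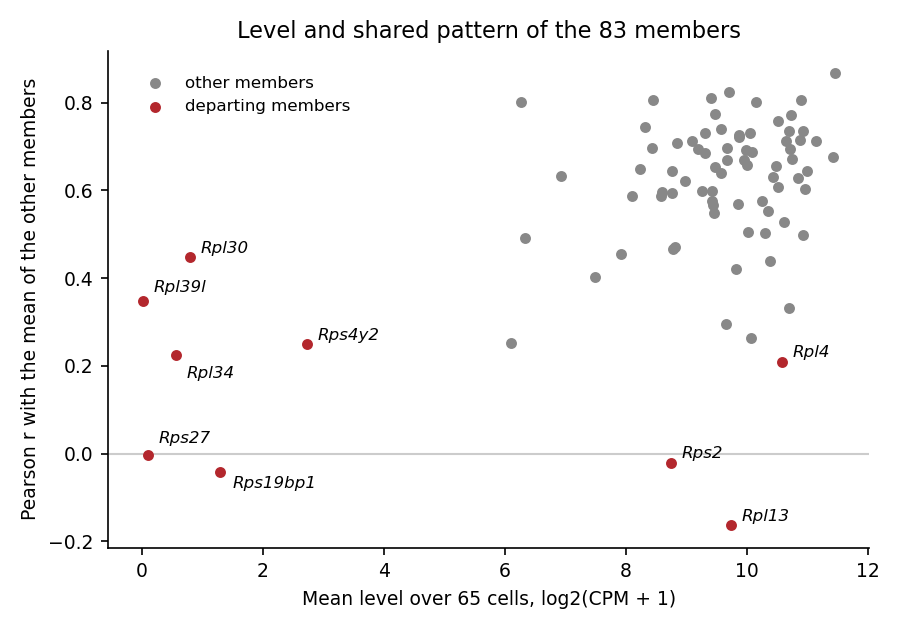
Pearson r of each of the 83 members with the mean of the other members over 65 cells (vertical axis) against its mean log2(CPM + 1) (horizontal axis). Of the 9 named departing members, 6 lie at low level, and Rps2, Rpl13 and Rpl4 are well expressed but low in r (-0.02, -0.16 and 0.21).

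A trio of genes of standard ribosomal proteins were almost without counts, although 39 members were at 10 CPM or more in every cell.
Rps27, a zinc-finger protein of the small subunit, had a median of 0 CPM, a highest value of 8.54 CPM, and no cell at 10 CPM. Rpl34 was at 10 CPM or more in 3 cells and reached 58.8 CPM, and Rpl30 was so in 5 cells and reached 57.1 CPM. Their levels in these files thus stood far from those of the other subunit genes, in all 3 sets. Rps27l, the close copy of Rps27, was read normally: it ran from 0.0593 over 175 to 581 CPM in set 1, from 0 over 266 to 797 CPM in set 2 and from 0.648 over 425 to 2823 CPM in set 3. Rps27l and Rps27 share 76.1% of their 255 coding bases. The coding sequences, from GENCODE M21 transcripts on GRCm38, are printed to show how the 2 genes, on chromosomes 3 and 9, differ, with every differing base in capitals.
Rps27: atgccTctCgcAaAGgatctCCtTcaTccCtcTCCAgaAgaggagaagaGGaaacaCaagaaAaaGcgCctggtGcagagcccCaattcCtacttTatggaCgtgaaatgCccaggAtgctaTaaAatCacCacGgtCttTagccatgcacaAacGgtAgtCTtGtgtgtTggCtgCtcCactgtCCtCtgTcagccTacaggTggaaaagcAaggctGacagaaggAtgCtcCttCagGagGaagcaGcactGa
Rps27l: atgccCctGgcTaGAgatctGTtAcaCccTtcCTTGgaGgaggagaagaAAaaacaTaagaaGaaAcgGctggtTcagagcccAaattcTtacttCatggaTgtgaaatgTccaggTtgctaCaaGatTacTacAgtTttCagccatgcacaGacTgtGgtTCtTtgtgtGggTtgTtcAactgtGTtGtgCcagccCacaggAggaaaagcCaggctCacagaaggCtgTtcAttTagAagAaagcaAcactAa

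Differences stand all along the pair. Another copy of Rps27 is much closer. Of the 50-base words in the Rps27 transcript, 98.6% also occur in Rps27rt, a retrotransposed copy. The same share with any other gene was 76.4% for Rpl30 and 50.6% for Rpl34. No other member shares as much as Rps27. Among the 77 members of the mean, 49 share 50% or more of their words with other genes. The highest of these were Rpl35 with 95.1%, at a median of 1578 CPM, Rpl5 with 93.8%, at 1089 CPM, and Rps10 with 92.4%, mostly with a readthrough transcript over Rps10 itself, at 510.5 CPM. Over the 83 members, the share of words found elsewhere had a rho of 0.11 with the level. The sources used here do not say how reads with several matches were counted, and its part in the low counts of Rps27, Rpl34 and Rpl30 was not tested.

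The other low members are copies or no ribosomal protein. Rpl39l, described in the testis, had at most 0.234 CPM in any cell, while Rpl39, its X-linked relative at the tunnel exit, had a median of 323 CPM and was at 10 CPM or more in 64 cells. Their 156 coding bases are 85.3% alike and are printed, with differing bases in capitals, because the pair shows the same contrast as Rps27l and Rps27 in the opposite sense.
Rpl39: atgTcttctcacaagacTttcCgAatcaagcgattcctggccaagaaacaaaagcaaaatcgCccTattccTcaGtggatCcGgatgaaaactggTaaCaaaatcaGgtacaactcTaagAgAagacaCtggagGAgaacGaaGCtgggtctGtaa
Rpl39l: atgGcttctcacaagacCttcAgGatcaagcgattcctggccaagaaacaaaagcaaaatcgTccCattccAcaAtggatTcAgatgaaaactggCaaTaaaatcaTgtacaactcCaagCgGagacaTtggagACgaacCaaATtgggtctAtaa

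Rps4y2, a relative of the X-linked Rps4x, was at 10 CPM or more in 24 cells and at 0 to 453 CPM in all. This on-and-off reading gave it the largest SD around the member mean of all members. That SD, taken with each set centred on its own mean, was 3.45 on the log2 scale. Rps19bp1 was at 10 CPM or more in 13 cells, reached 347 CPM and had an r of -0.04 with the other members. After these came Rpl36al with a centred SD of 2.56, Rpl7l1 with 2.29 and Rps27l with 2.09, so that related copies made up 4 of the 5 highest. In 3 pairs of the other copies the copy was lower than its partner, unlike Rps27l and Rps27: the median was 81.6 CPM for Rpl7l1 and 2032 CPM for Rpl7, 146 CPM for Rpl36al and 335 CPM for Rpl36a, and 94.8 CPM for Rpl22l1 and 170 CPM for Rpl22. Rpl22l1, which takes the place of Rpl22 when that is lost in mice, varied with Rpl22 at an r of 0.57, and 0.50 after centring. Rpl7l1 and Rpl7 had 0.07 and -0.08.

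Rps2 and Rpl13 were well expressed but went against the others between sets. Rps2, a small-subunit protein at the entry of the messenger, ran from 0.512 over 774 to 1504 CPM in set 1, from 4.24 over 1387 to 2767 CPM in set 2 and from 0.426 over 263 to 1295 CPM in set 3. Rpl13, of the large subunit, ran from 13.7 over 1522 to 2908 CPM in set 1, from 118 over 2278 to 2969 CPM in set 2 and from 14.98 over 375 to 2604 CPM in set 3. Both were thus lowest in set 3, where most other members were highest, and the ranges overlapped. Within sets 1, 2 and 3, the r of Rps2 with the other members was 0.46, 0.82 and 0.31, and that of Rpl13 was 0.58, 0.57 and -0.34. After centring, Rps2 stood at 0.46, the median of all members, Rpl13 at 0.23 and Rpl4 at 0.095. No member lay below the bound computed in the same way, which was then -0.08 in place of 0.24. A member without any correlation with the others would pass that bound. The departure of Rps2 was therefore one between sets, and that of Rpl13 lay between sets and within set 3. Rps2 and Rpl13 had an r of 0.56 with each other (0.33, 0.74 and 0.47 within the sets). Rpl4, of the large subunit's tunnel wall, had an r of 0.25, 0.21 and -0.35 within the sets.

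Set 3 exceeded set 1 by more than 1 on the log2 scale in 57 of 79 members, against 8.25% of all genes, and fell below it by more than 1 in 2, Rps2 (-1.99) and Rpl13 (-1.54), against 26% of all genes. The median difference was 1.37 for members and -0.38 for other genes. With TMM scaling these medians were 1.85 and -0.23, and with CPM on the total without the members 1.53 and -0.34, so that the direction of members against other genes did not change, and both exceptions stayed below 0. The largest differences were those of Rpl12 (2.43), part of the stalk base, Rpl39 (2.16), Rpl22l1 (2.10), Rps28 (2.09) and Rps18 (2.04). Rpl12 had medians of 241 CPM in set 1, 581 CPM in set 2 and 915 CPM in set 3, with overlapping ranges. None of the 79 members had cells in set 3 wholly above or below those of set 1, against 0.0239% of all genes, which are Rn45s and Lars2. Set 2 lay more than 1 below set 1 in 17 of 79 members, against 30% of genes, and more than 1 above it in 4, against 10.9%. The widest spans between set means were those of Rpl22l1 (3.45), Rpl18 (3.38), Rpl28 (3.21), Rpl14 (2.85) and Rpl21 (2.64), each with set 2 lowest and set 3 highest.

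Transcript length moved with the difference between sets 3 and 1. Ribosomal protein messages are short, with a median of 729 bases against 2880 for other genes. Among other genes with a median of 300 CPM or more, the difference had a rho of -0.47 with length (276 genes), and among the 77 members -0.46. Members under 600 bases had a median difference of 1.53, and 20 other genes of that length and level had 1.44. At 600 to 1000 bases the medians were 1.36 for 32 members and 0.75 for 50 other genes. At 1000 to 2000 bases they were 0.95 for 16 members and -0.34 for 101 other genes. The shortest members thus differed between sets about as much as other short, abundant messages, and the longer members differed more than others of their length. The part of length in the higher share of set 3 was not tested beyond these values. Base composition had a rho of -0.11 with the difference among members.

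**Figure D5:**
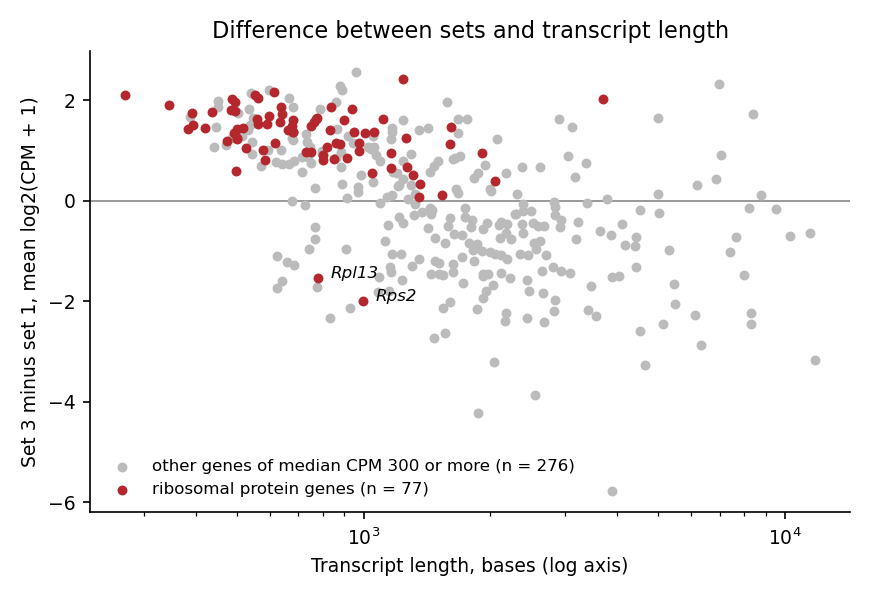
Mean log2(CPM + 1) in set 3 minus that in set 1 (vertical axis) against transcript length in bases (horizontal log axis), for the 77 members and 276 other genes with a median of 300 CPM or more. Short genes of both kinds lie above 0, and Rps2 (-1.99) and Rpl13 (-1.54) are the members below -1.

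Members with known roles showed no common place apart from the rest. The 4 stalk proteins, Rplp0, Rplp1, Rplp2 and Rpl12, had median levels from 366.5 to 2539 CPM and rho with the score from -0.59 to -0.34. Rpl5 and Rpl11, which travel together with the smallest large-subunit RNA and can bind Mdm2, had medians of 1089 and 948 CPM and rho of -0.39 and -0.37. The 8 tunnel exit proteins had rho from -0.40 to -0.15, with Rpl38, whose loss in mice disturbs the patterning of the axial skeleton, at -0.27. Rpl38 ran from 4.06 over 199 to 505 CPM in set 1, from 11.04 over 305 to 825 CPM in set 2 and from 246 over 851 to 2413 CPM in set 3. The 5 members known from mouse mutants, Rpl38, Rpl24, Rps19, Rps20 and Rpl27a, had rho from -0.43 to -0.23, within the range of the other members. Rps27a, made as a fusion with ubiquitin, had a median of 1010 CPM and rho of -0.44. The X-linked Rps4x, Rpl10, Rpl36a and Rpl39 lay between -0.40 and -0.17.

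Genes outside the rule that belong to the ribosome behaved alike in part. Fau, a fusion with a small-subunit protein, had an r of 0.65 with the member mean, and 0.40 after centring. Gnb2l1, the scaffold protein of the small subunit also called Rack1, had 0.15 and 0.26. Among the other genes of mean CPM 10 or more with 1 sign in every set, those of high r included Gm5148 at 0.80, Hmgb1-rs17 at 0.73, the histone variant H2afz at 0.72, Serf2 at 0.71, the respiratory chain subunit Uqcr10 at 0.68, the acyl-CoA binding protein Dbi at 0.68, the Notch target Hes1 at 0.66, the cyclophilin Ppia at 0.66 and the splicing protein Snrpg at 0.66. After centring, these genes stood, in the same order, at 0.63, 0.53, 0.70, 0.62, 0.55, 0.70, 0.46, 0.47 and 0.54. Hes1 had a median of 0 CPM in sets 1 and 2 and of 57.3 CPM in set 3. Gm5148 shares 378 of its 50-base words with Rps23 and varied with it at an r of 0.95. Reads from those words cannot be told apart between the 2 rows. Lowest were the tubulin Tuba1a at -0.60, the neuronal zinc-finger factor Myt1 at -0.58, Dpysl5 at -0.58, the actin Actg1 at -0.57 and the microtubule protein Dcx at -0.56. After centring, these lowest genes stood, in the same order, at -0.60, -0.48, -0.37, -0.53 and -0.55. Dcx and Tuba1a belong to neuronal differentiation, and Dbi and Hes1 to progenitors. Of the 18 apical progenitor genes of mean CPM 10 or more, only these 2 reached an r of 0.5. The median r was 0.20 for that list and -0.36 for the 20 neuronal genes, and 0.35 and -0.45 after centring.

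Other parts of the translation machinery followed the member mean less. Of 8 elongation genes, none reached an r of 0.5, with a median r of 0.05, although Eef1g, Eef1d and Eef1b2 had 0.49, 0.49 and 0.48. Eef1a1, the factor that brings the transfer RNA, had 0.05, and Eef2, which moves the ribosome along, had -0.30. Of 27 initiation genes none reached 0.5 (median 0.03); Eif3m had 0.45. Of 39 ribosome biogenesis genes, 2 did (median 0.15), the small nucleolar particle proteins Nop10 at 0.65 and Nop58 at 0.51. Of 7 genes that act on the nascent chain, Naca at 0.53 and Sec61g at 0.51 did (median 0.31). Of 75 mitochondrial ribosomal protein genes, 3 did (median 0.17), Mrpl42, Mrpl30 and Mrps28. The median over other genes was -0.01. After centring, Eef1b2 stood at 0.58 and the poly(A)-binding protein Pabpc1 at 0.60, while the median was 0.28 for elongation genes and 0.17 for initiation genes. Of 9 host genes of small nucleolar RNAs, Gas5 alone, itself a transcript with a pyrimidine tract, reached 0.5, at 0.52. None of the 17 growth control genes of mean CPM 10 or more reached it (median -0.04).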

How the data were processed

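Single-cell polyA RNA of 65 cells was read out as 1 deposited table of raw read counts per gene. The submitters' processing notes name TopHat2, HTSeq and mm9, without versions or roles; the annotation and the handling of reads with several matches are not given in the sources used here. From the counts, CPM on the total of all genes and log2(CPM + 1), with a pseudocount of 1, were computed with Python, numpy and pandas; TMM factors came from edgeR. Reads per cell in genes ran from 85338 to 32130629. Transcript lengths, shared 50-base words and coding sequences came from GENCODE M21 on GRCm38 (11862 of 11971 genes matched, 83 of 83 members), start sites from RefSeq on GRCm38.p6; no coordinate was taken from or carried to mm9. Lengths are of the shortest coding transcript with the principal coding length. Genes of mean CPM 10 or more served as background, and most of them were at far lower levels than the members. Named members are the extremes by level per length, r with the other members, rho with the score, spread and set span, every departing member, and members with a listed role or copy; other genes are those of highest and lowest r with 1 sign in every set and those of largest r in each list. Members and lists were chosen with earlier results of these data known. Cells are not replicates, so no test was run. The calculations were tested on simulated data. Cells were left out, rescaled, centred within sets, thinned or taken set by set as alternatives. No doublet caller was run, and 1 library held 1 sorted cell.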

Additional observations from a re-analysis of the deposited data

How the results depend on the processing

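Of 130 alternative values, 99 stayed close to those reported: counts within 1.5 times, shares within 1 SD over cells, and correlations within 0.1. The 6 members that depart in level and the 6 in detection numbered 6 under every alternative run. Centring and the exchange of Pearson and Spearman could not change either number, and the pseudocount could not change that in detection. These fixed values are among the 99. The median share was 16.1% in set 3 alone, and 9.24% without Rn45s in the total, a choice made after seeing the data. Without the 7 cells with meningeal or mural genes, also chosen after seeing the data, it was 8.30%, and 63 members exceeded 1 in set 3. Members departing in pattern numbered 10 with TMM scaling and 0 after centring within sets, where the bound on r was lower, at -0.08. The mean correlation between members was 0.51 with TMM scaling, 0.24 after centring and 0.12 in set 2 alone. The Spearman rho of the member mean with the score was -0.68 after centring, -0.71 in set 1 and -0.71 in set 2. For G1/S genes it was 0.65 after centring and 0.68, 0.72 and 0.57 in sets 1, 2 and 3. For G2/M genes it was 0.52 after centring, 0.63 and 0.50 in sets 1 and 2, and 0.24 as Pearson's r. All genes higher in set 3 than set 1 came to 4.14% with a pseudocount of 10 and 17.9% past 0.5 in place of 1. Other translation genes at r of 0.5 or more numbered 9, 4 after centring and 20 with Spearman's rho. Tracts that begin at the annotated start were found in 13 members in place of 29, and tracts of 8 or more within 25 bases, an alternative chosen after seeing the data, in 36. The r of Rpl13 with the other members turned from -0.16 to 0.23 after centring. Apart from the removal of set differences by centring, the causes were not tested. The set digit, pooled embryos and unstated read assignment limit every comparison. No paired analysis was possible because there is 1 group and the result comes from no test.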
